A study of Homo sapiens with 7 samples.

Results

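The HOX cluster genes described here are 38 protein-coding homeobox genes of the HOXA, HOXB, HOXC and HOXD clusters, taken by name and read by cluster and by paralog number, the number that gives a gene's place along its cluster. Of the 38, 22 had a row and a test among the 16522 genes tested. These were 8 of 10 HOXA genes, 7 of 10 HOXB genes and 7 of 9 HOXC genes. The other 16, among them all 9 HOXD genes, were not analysed here. The cells were PC9, an established human lung adenocarcinoma line with a mutated EGFR gene, grown without a labelled treatment. There were 3 libraries of parental PC9 and 4 libraries of PC9 with AXL knocked out, which came from 2 knockout clones with 2 libraries each. AXL is a receptor tyrosine kinase, and each knockout clone grew from a single sorted cell, so the effect of the knockout and the history of the founding cell cannot be told apart. Nothing in the labels says that libraries of a group were separate cultures, and the p-values therefore reflect only how these 7 libraries vary, which may be technical.

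HOX genes encode transcription factors with a homeodomain, and they give cells of the embryo a position along the head-to-tail axis. Within a cluster all genes lie in one orientation, the low paralog numbers at the 3' end are used first and nearest the head, and many adult tissues and tumours keep part of that pattern. Polycomb complexes keep silent HOX genes shut, trithorax proteins such as KMT2A keep active ones on, retinoic acid induces the 3' end genes, and PBX and MEIS proteins bind DNA together with HOX proteins.

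Bulk MARS-seq counts tags near the poly(A) end of each transcript. The authors' deposited table holds 1 mean normalized count, 1 fold change and 1 test per gene. The normalized counts summed to 12209504 over all genes in that table, and the 22 HOX genes took 2375 of them, 0.0195%. For 20 of the 22 HOX genes the whole counts of each of the 7 libraries were recovered from the deposited mean and fold change. For HOXA3 and HOXB7 they were not. Counts are listed in one fixed order of libraries within each group, by descending size factor (0.938 to 1.06 over the 7), and the clone and replicate number of each library are not known. Fold changes are knockout over parental with the authors' standard error (SE), and a gene is called at an adjusted p under 0.05. AXL itself had 1476, 1471 and 1425 counts in the parental libraries and 24, 15, 11 and 22 in the knockout libraries. The cells carried epithelial keratins in both groups, with KRT8 at an implied 24512 parental and 50455 knockout normalized counts in the authors' deposited table. Of 7 epithelial markers 3 were higher and 2 lower (71.4% called, beside 38.0% of all genes tested). The lower ones were CDH1 (log2 fold change -0.33 ± 0.06) and NKX2-1, a lung lineage factor. NKX2-1 was low in both groups at implied levels of 9.47 and 0.182. Of 8 markers of leukocytes, endothelium and fibroblasts 5 had a row. PECAM1 and CD14 were higher (implied 351 to 1777 and 2.27 to 13.4), COL1A1 was lower (126.5 to 84.0), and VWF and ACTA2 stayed at or under an implied 4.87. Their part in the HOX results was not tested.

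In AXL knockout cells HOXC4 and HOXC13 were higher, and HOXA2, HOXA11, HOXB5 and HOXB9 were lower. These 6 of 22 HOX genes (27.3%) passed the DESeq2 Wald test of the authors' deposited table, beside 38.0% of all genes tested, 19.5% higher and 18.5% lower. Among the 11229 genes whose mean lay within the HOX range, 34.6% were called. The share of HOX genes called was thus no larger than the background. A change of at least 2-fold was called for HOXA11 and HOXC4, beside 9.08% of all genes and 11.3% of those in the HOX range. By cluster, the 8 HOXA genes held 2 lower, the 7 HOXB genes 2 lower and the 7 HOXC genes 2 higher calls. The median log2 fold change was -0.12 for HOXA, -0.40 for HOXB and 0.47 for HOXC, against -0.01 over all genes tested. Fold changes lay above 0 for 3 of 8 HOXA, 1 of 7 HOXB and 6 of 7 HOXC genes. The difference between clusters was not tested.

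Promoters are shown for the 3 called genes that have one among the RefSeq promoter sequences used here, 2 genes that fell and 1 that rose. The RefSeq sequences (GRCh38.p14) matched 8 of the 22 genes with 15 promoters. Each line gives the 250 bases before the annotated start, 5' to 3' on the strand of the gene, with CCCTC or its complement GAGGG in capitals. HOXA2 lies on the minus strand at chr7:27102684-27102933, HOXA11 on the minus strand at chr7:27185233-27185482 and HOXC4 on the plus strand at chr12:54016638-54016887.
HOXA2: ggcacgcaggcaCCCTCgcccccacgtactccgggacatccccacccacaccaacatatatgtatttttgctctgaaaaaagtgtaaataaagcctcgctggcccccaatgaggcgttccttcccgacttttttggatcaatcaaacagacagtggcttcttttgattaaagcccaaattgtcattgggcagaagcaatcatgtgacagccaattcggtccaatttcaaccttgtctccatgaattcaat
HOXA11: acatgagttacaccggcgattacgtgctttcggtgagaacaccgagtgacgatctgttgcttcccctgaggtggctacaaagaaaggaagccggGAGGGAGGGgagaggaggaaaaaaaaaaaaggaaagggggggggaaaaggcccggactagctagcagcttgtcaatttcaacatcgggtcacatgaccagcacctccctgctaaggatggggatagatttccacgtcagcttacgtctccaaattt
HOXC4: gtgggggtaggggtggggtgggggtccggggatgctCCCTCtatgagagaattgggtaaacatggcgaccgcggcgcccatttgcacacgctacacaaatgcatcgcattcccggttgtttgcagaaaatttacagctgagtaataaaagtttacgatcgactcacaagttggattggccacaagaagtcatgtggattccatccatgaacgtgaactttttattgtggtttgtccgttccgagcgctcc
CCCTC, the core of the motif of the insulator protein CTCF, was sought on both strands over 300 bases, from 250 before to 50 after the start. It occurred once before HOXA2, once before HOXC4, and in 2 overlapping copies before HOXA11. Of 35116 promoters of the same length 71.2% hold it. None of the 3 windows held TATAAA, the retinoic acid receptor half-site AGGTCA or the E-box CACGTG on either strand, which occur in 11.5%, 13.8% and 7.26% of all promoters. The CpG dinucleotide occurred 11 times at HOXA2, 13 at HOXA11 and 15 at HOXC4, beside a median of 14 over all promoters. All 3 windows thus held CCCTC, as most promoters do, and lacked the other motifs, each of which most promoters lack. How many promoters share this combination was not counted. Their CpG counts lay on both sides of the median. Tags from 3' ends do not show which start a transcript used.

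**Figure D1:**
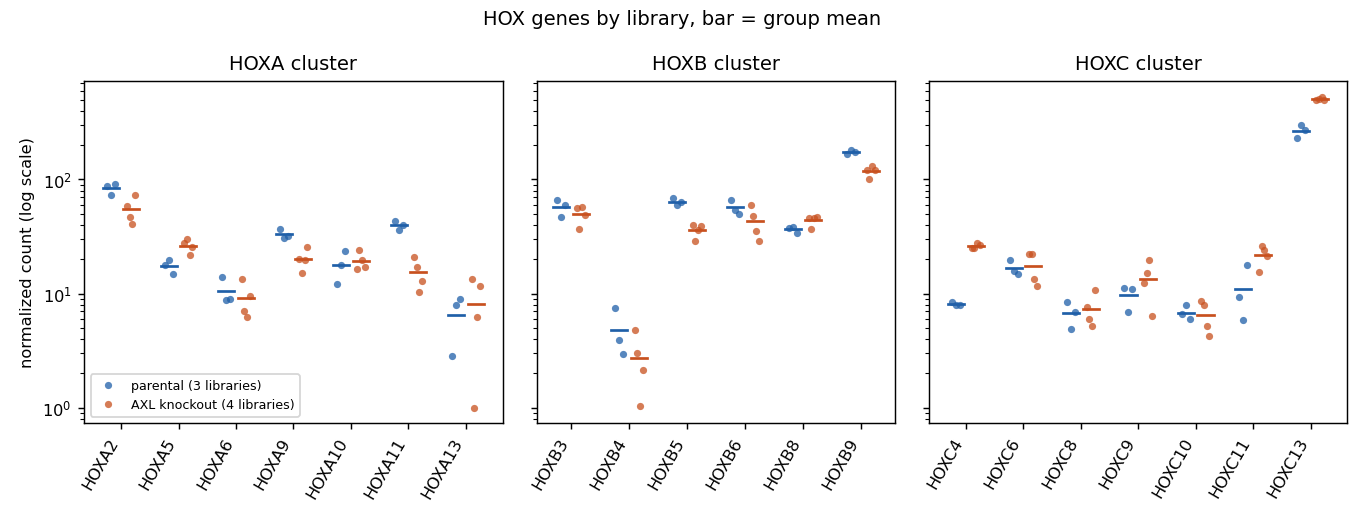
Normalized counts (log scale) of the 20 HOX genes with recovered counts, by cluster, with each dot 1 library and each bar the mean of 3 parental (blue) or 4 AXL knockout (orange) libraries. The groups do not overlap for HOXA5, HOXC4 and HOXC13, which are higher in knockout, nor for HOXA2, HOXA9, HOXA11, HOXB5 and HOXB9, which are lower. The figure is meant for comparing the groups within a gene, not for ranking genes by level.

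The HOXA cluster spans chr7:27100354-27200106 (GRCh38, GENCODE 29), with all 8 measured genes on the minus strand. HOXA2, a group 2 gene that patterns the hindbrain and the second pharyngeal arch in mouse (ENSG00000105996, chr7:27100354-27102811), had 93, 75 and 92 counts in the parental and 61, 47, 39 and 68 in the knockout libraries. Every knockout library lay below every parental one, the nearest being 68 counts (size factor 0.938) against 75 (size factor 1.016). In normalized counts this pair lay closer together, still without overlap. HOXA2 fell by 0.63 ± 0.21 (SE) on the log2 scale in the authors' deposited table (adjusted p = 0.00911). Without the third knockout library, which had 39 counts, the refitted value was -0.51 with an unadjusted p of 0.0222, above the 0.0190 at which calls end. With a t distribution on 5 degrees of freedom its adjusted p was 0.101, and the call ended.

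HOXA11, a group 11 gene that acts in the forearm, kidney and uterus in mouse (ENSG00000005073, chr7:27181510-27185223), had 46, 37 and 40 parental counts and 22, 17, 10 and 12 knockout counts. The groups stood well apart, with the highest knockout library at 22 and the lowest parental one at 37. In normalized counts the means were 39.8 ± 3.41 (SD, n = 3) and 15.3 ± 4.71 (SD, n = 4). HOXA11 changed by -1.37 ± 0.32 (SE) on the log2 scale in the authors' deposited table, 2.58-fold lower in knockout (adjusted p = 1.19e-04). It was the HOX gene with the largest fall. HOXA11 kept its call with every single library left out, in refits that held the dispersion of all 7 libraries fixed. Its antisense RNA HOXA11-AS, which overlaps it on the other strand, had 13, 8 and 13 against 14, 6, 11 and 10 counts. Those groups overlapped.

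HOXA9 and HOXA10 lie next to each other and their annotated spans overlap. Both act in blood progenitors, and HOXA10 also in the uterus. HOXA9 had 39, 31 and 32 parental and 21, 15, 19 and 24 knockout counts, with no overlap between the groups. Its log2 fold change of -0.72 ± 0.31 in the authors' deposited table missed the threshold (adjusted p = 0.0560). It passed when only genes with a mean of at least 20 were adjusted together (0.0457), and when the fourth knockout library was left out (-0.85, unadjusted p = 0.0126). The other 6 leave-one-out refits did not pass, with unadjusted p up to 0.0728. HOXA10 had 13, 18 and 24 parental and 17, 24, 19 and 16 knockout counts, which overlapped, and 0.11 ± 0.37 in the authors' deposited table (adjusted p = 0.863). The antisense RNA HOXA10-AS, which overlaps both, had 43, 38 and 38 against 29, 29, 31 and 19 counts. That was -0.49 ± 0.28 in the authors' deposited table and not called (adjusted p = 0.158).

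HOXA5, which mouse lung development requires, was the one measured HOXA gene whose knockout libraries all lay above the parental ones. It had 19, 20 and 15 parental and 29, 30, 21 and 24 knockout counts, but 0.59 ± 0.34 in the authors' deposited table was not called (adjusted p = 0.168). HOXA6 had 15, 9 and 9 against 14, 7, 6 and 9 counts. HOXA13, which shapes the distal limb and the genital tract, had 3, 8 and 9 against 14, 1, 6 and 11 counts. Both overlapped between groups, and their 95% intervals of -1.23 to 0.77 and -0.97 to 1.60 each include a 2-fold change. HOXA3, needed for thymus and parathyroid in mouse, was the HOX gene measured most precisely beside HOXB7. Its log2 fold change was -0.01 ± 0.08 in the authors' deposited table, with a 95% interval of -0.17 to 0.14 and implied levels of 730.5 and 724. The annotated span of HOXA3 holds HOXA5 and HOXA6 on the same strand, so how shared tags were counted could move values between these genes.

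The HOXB cluster spans chr17:48548870-48633572, again with every measured gene on the minus strand. HOXB5, a mid-cluster gene that acts in lung branching and in the enteric nervous system in mouse (ENSG00000120075, chr17:48591257-48593961), had 73, 61 and 64 parental and 42, 29, 35 and 37 knockout counts. All 4 knockout libraries lay well below the 3 parental ones. HOXB5 changed by -0.82 ± 0.23 (SE) on the log2 scale in the authors' deposited table, 1.77-fold lower (adjusted p = 0.00141). HOXB9, which patterns the ribs in mouse (ENSG00000170689, chr17:48621159-48626356), had 177, 183 and 175 parental and 126, 101, 126 and 114 knockout counts. Here too the groups were apart, and the parental libraries ran only from 175 to 183. HOXB9 changed by -0.55 ± 0.14 in the authors' deposited table, 1.46-fold lower (adjusted p = 3.35e-04). Both genes kept their calls with any 1 library left out, again at the dispersion of all 7 libraries. With the t distribution on 5 degrees of freedom they did not pass, at adjusted p of 0.0657 and 0.0502.

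The genes between and around HOXB5 and HOXB9 were not called. HOXB6, the next gene to HOXB5, had 71, 55 and 50 against 62, 48, 34 and 27 counts, with a wide and overlapping spread in the knockout group. Its log2 fold change in the authors' deposited table was -0.40 ± 0.25 (adjusted p = 0.209). HOXB8 had 40, 39 and 34 against 48, 37, 44 and 44 counts, and it was the one HOXB gene with a fold change above 0, 0.26 ± 0.25 in the authors' deposited table (adjusted p = 0.449). HOXB3 had 70, 48 and 60 against 59, 37, 55 and 46 counts. HOXB4, which expands blood stem cells when overexpressed, was near the floor with 15 parental counts in all and 11 knockout counts, and its 95% interval ran from -2.44 to 0.83. HOXB7, often raised in breast cancer, had -0.03 ± 0.07 in the authors' deposited table, with a 95% interval of -0.18 to 0.11 and implied levels of 660 and 645. Its annotated span holds HOXB8 and HOXB9, and HOXB3's span overlaps HOXB4, HOXB5 and HOXB6, so how tags in shared stretches were counted could move values between them. How the authors counted such tags is not given in the sources used here.

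The HOXC cluster spans chr12:53938765-54056030, with its genes on the plus strand and HOXC13 at its 5' end. HOXC13, a regulator of hair and nail keratins (ENSG00000123364, chr12:53938765-53946544), had 245, 305 and 271 parental and 520, 512, 513 and 462 knockout counts. The groups did not overlap, with the lowest knockout library at 462 and the highest parental one at 305. In normalized counts the means were 266.5 ± 35.1 (SD, n = 3) and 509 ± 17.7 (SD, n = 4). HOXC13 rose by 0.93 ± 0.10 (SE) on the log2 scale in the authors' deposited table, 1.91-fold (95% interval 0.75 to 1.12, adjusted p = 5.95e-21). It had the smallest p of the HOX genes, and it also passed when the null was any change up to 0.5 on the log2 scale (adjusted p = 1.30e-04). The antisense RNA HOXC13-AS, which overlaps it, had 34, 34 and 26 against 56, 36, 44 and 46 counts. All its knockout libraries lay above the parental ones, but 0.60 ± 0.26 in the authors' deposited table was not called (adjusted p = 0.0571).

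HOXC4, at the 3' end of the cluster (ENSG00000198353, chr12:54016931-54056030), had 9, 8 and 8 parental and 26, 25, 27 and 25 knockout counts. The libraries of each group were nearly alike and the groups stood far apart. HOXC4 rose by 1.69 ± 0.41 on the log2 scale in the authors' deposited table, 3.23-fold (95% interval 0.88 to 2.50, adjusted p = 1.94e-04). Its call stood in each leave-one-out refit and under that stricter null of 0.5 (adjusted p = 0.0482). Its annotated span overlaps that of HOXC6, which had 21, 16 and 15 against 23, 22, 13 and 11 counts and 0.05 ± 0.39 in the authors' deposited table. HOXC4 and HOXC13 thus rose from opposite ends of the cluster.

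Of the 5 HOXC genes between them, none was called. HOXC11 had 10, 6 and 18 parental and 16, 26, 23 and 20 knockout counts, and a single parental library with 18 made the groups overlap. Its log2 fold change was 0.97 ± 0.42 in the authors' deposited table (adjusted p = 0.0543). Without that library the refitted value was 1.49 with an unadjusted p of 0.00416, and without the first knockout library 1.11 with 0.0122. The other 5 refits stayed above the 0.0190 at which calls end, and without the second parental library, which had 6 counts, the value was 0.67 with 0.149. HOTAIR, a non-coding RNA that binds Polycomb proteins and overlaps HOXC11 on the other strand, had 12, 19 and 19 against 30, 25, 21 and 16 counts. That was 0.52 ± 0.36 in the authors' deposited table (adjusted p = 0.281). HOXC8, HOXC9 and HOXC10 had between 4 and 19 counts per library in both groups, overlapping throughout. Their log2 fold changes were 0.12 ± 0.59, 0.47 ± 0.48 and -0.05 ± 0.60 in the authors' deposited table, intervals that include 2-fold changes in 1 or both directions. HOXC8 and HOXC9 lie within the annotated span of HOXC6 and HOXC4 overlaps it, so the limit on shared tags given for HOXB holds here too.

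**Figure D2:**
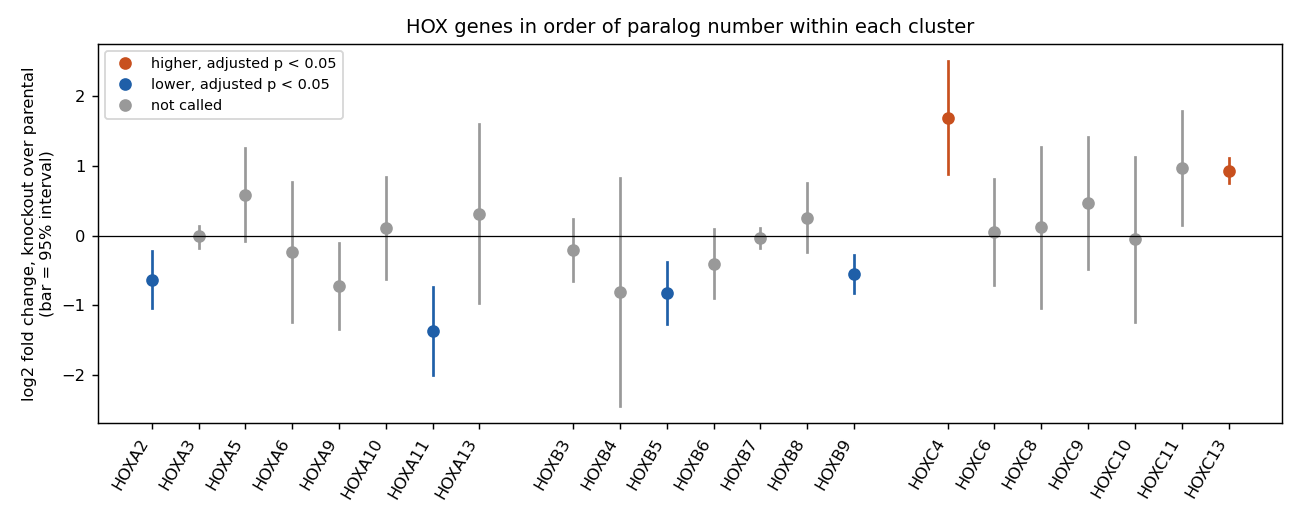
Log2 fold change (knockout over parental, dots) with its 95% interval (bars) for the 22 HOX genes, ordered by paralog number within each cluster, with calls at an adjusted p under 0.05 in colour. HOXC4 (1.69) and HOXC13 (0.93) stand above 0, and HOXA2 (-0.63), HOXA11 (-1.37), HOXB5 (-0.82) and HOXB9 (-0.55) below it, while intervals are narrow for HOXA3 and HOXB7 and wide for HOXB4 and HOXA13.

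Read across the 20 genes with recovered counts, the knockout libraries all lay above the parental ones for 3 genes, all below for 5, and overlapped for 12. No such count was made over all genes, of which 38.0% were called, so these counts show nothing particular to HOX genes. For the 7 HOXA genes other than HOXA3 the summed normalized counts ran from 195 to 219.5 in parental and from 124.5 to 175 in knockout libraries. The 6 HOXB genes other than HOXB7 summed to 383 to 413 and 255 to 328. The genes left out hold more counts than each of these sums, with implied levels of 730.5 and 724 for HOXA3 and 660 and 645 for HOXB7 in the authors' deposited table, so the sums are not cluster totals. The 7 HOXC genes, mostly HOXC13, summed to 294 to 349 and 574 to 628. None of these 3 partial or full sums overlapped between groups. Each sum holds the called genes of its cluster, so it is no separate support for those calls. No such sums were made for other genes. With 3 against 4 libraries the smallest 2-sided exact permutation p is 0.0571, which takes all libraries as exchangeable although knockout libraries share clones. Of the 9 paralog numbers with at least 2 measured genes, 6 had fold changes on both sides of 0. In group 5 HOXA5 was at 0.59 and HOXB5 at -0.82, and in group 11 HOXA11 was at -1.37 and HOXC11 at 0.97 in the authors' deposited table, where HOXB5 and HOXA11 were called. In group 13 HOXA13 was at 0.31 and HOXC13 at 0.93, and only HOXC13 passed. Whether paralogs differed in response was not tested.

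Non-coding RNAs of the HOX clusters were listed by 18 names, of which 9 had a row. HOXA-AS2 was higher, and the other 8 were not called (11.1% called, beside 38.0% of all genes tested). HOXA-AS2 had 158, 164 and 148 parental and 312, 272, 284 and 239 knockout counts, with no overlap. It rose by 0.88 ± 0.12 on the log2 scale in the authors' deposited table (adjusted p = 8.05e-13). It lies within the annotated span of HOXA3 on the opposite strand, and HOXA3 stayed at -0.01 ± 0.08. Whether the counting used strand is not given in the sources used here, so tags of the pair may not be told apart. HOXB-AS3, opposite HOXB3 to HOXB6, had 25, 19 and 18 against 10, 12, 11 and 10 counts. Its groups were apart, but -0.88 ± 0.41 in the authors' deposited table was not called (adjusted p = 0.0747).

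Protein-coding genes within 1 Mb of the clusters, HOX genes left out, moved in both directions. Of 63 such genes 21 were higher and 8 lower (46.0% called, median log2 fold change 0.03), beside 38.0% of all genes. Beside HOXA, 4 of 8 were higher and 1 lower, with NFE2L3 at 0.64 ± 0.04 and HIBADH at 0.53 ± 0.08 in the authors' deposited table. Around HOXB, 7 of 25 were higher and 4 lower. SP6, a zinc finger factor of teeth and skin, was at 1.73 ± 0.08 in the authors' deposited table, and PRR15L went from an implied 7.12 to 195. The HOXC neighbours held 10 higher and 3 lower of 30, among them the simple epithelial keratins KRT8 (1.04 ± 0.04) and KRT18 (0.72 ± 0.04), the integrin ITGA5 (-1.13 ± 0.07) and the retinoic acid receptor RARG (0.70 ± 0.06) in the authors' deposited table. The measured neighbour nearest to each cluster's centre was SKAP2 for HOXA (0.01 ± 0.06), CALCOCO2 for HOXB (0.22 ± 0.07) and SMUG1 for HOXC (-0.10 ± 0.10) in the authors' deposited table, and of these CALCOCO2 was called.

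**Figure D3:**
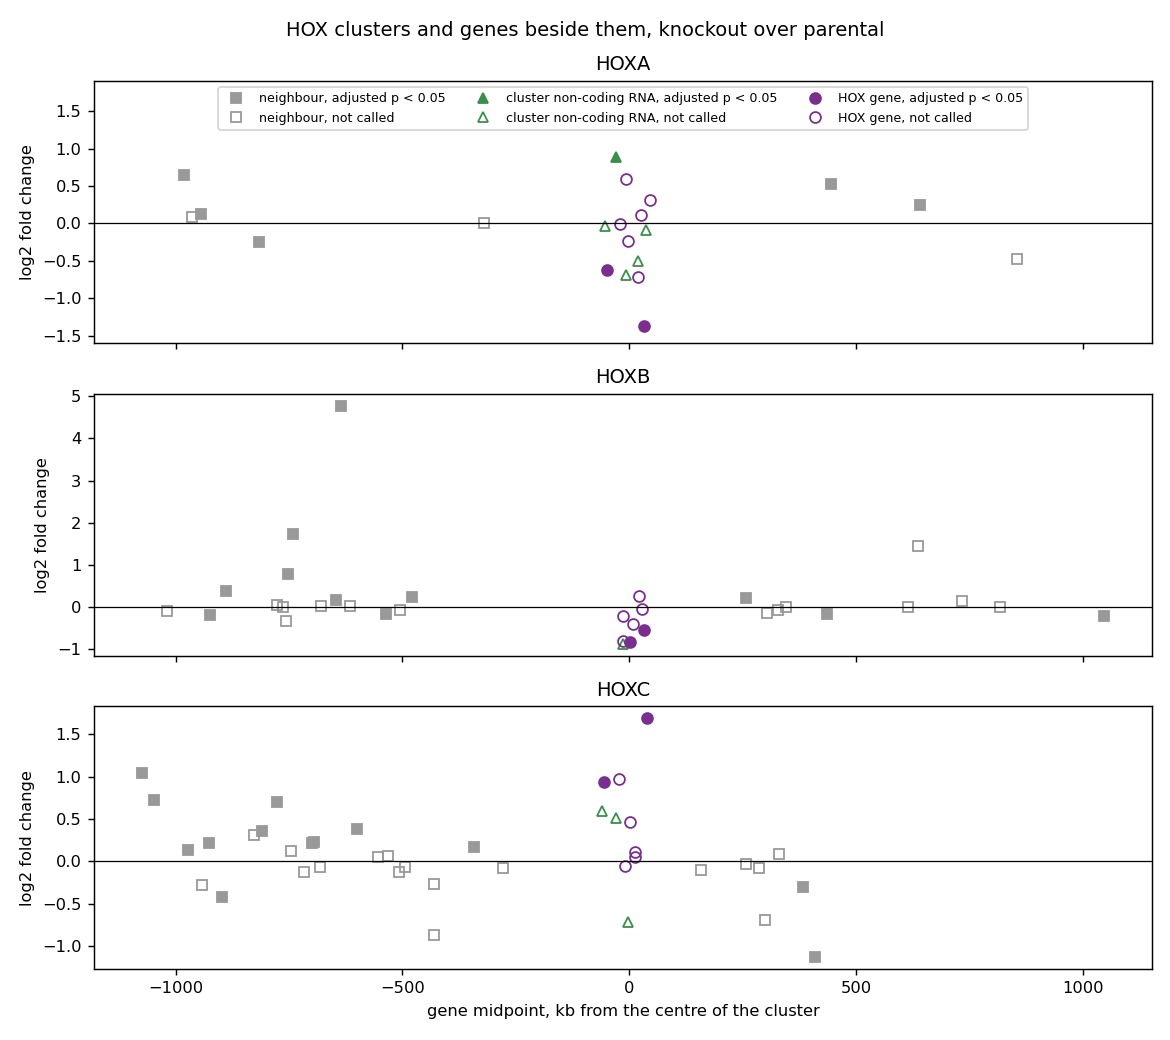
Log2 fold change of HOX genes (circles), non-coding RNAs of the clusters (triangles) and other protein-coding genes (squares) against the distance of each gene's midpoint from the centre of its cluster in kb, filled where the adjusted p was under 0.05. Called and uncalled genes sit side by side in each cluster, with HOXA-AS2 at 0.88 above the HOXA genes and HOXC4 at 1.69 the highest point of the HOXC panel.

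Genes that partner or regulate HOX genes were counted by lists, to be read beside the 38.0% called over all genes tested. No list was tested as a set. The 10 TALE cofactors, which bind DNA together with HOX proteins, are not all reported here, so the genes named do not stand for the list. Among them PBX2 (0.12 ± 0.07), PBX3 (-0.22 ± 0.14), MEIS1 (-0.11 ± 0.23) and MEIS2 (-0.05 ± 0.12) were not called in the authors' deposited table. Polycomb complex PRC2 methylates histone H3, and of its 12 listed genes 7 rose and 2 fell, and the median was 0.18. The larger of these changes in the authors' deposited table were PHF19 at -0.81 ± 0.10 and EPOP at 0.58 ± 0.09, and the catalytic subunit EZH2 was at 0.18 ± 0.06. Of 17 genes of PRC1 4 rose and 3 fell (41.2% called, near the share of all genes), and the median was 0.05. The chromodomain subunits CBX7 (1.09 ± 0.10) and CBX6 (0.87 ± 0.04) rose and PCGF3 (-0.94 ± 0.08) fell in the authors' deposited table.

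Of 15 trithorax proteins and H3K27 demethylases 4 rose and 1 fell (33.3% called, beside 38.0% of all genes tested), and the median was 0.00. KMT2A, which maintains HOX expression, was at 0.54 ± 0.06 in the authors' deposited table (adjusted p = 9.90e-16), and the demethylases KDM6A and KDM6B were not called. Of 19 names for CDX factors, retinoic acid genes and architectural proteins 13 had a row. Of these, 8 were higher and 1 lower (69.2% called), and the median was 0.47. RXRA (1.03 ± 0.06), RARG (0.70 ± 0.06), the retinoic acid carrier CRABP2 (0.70 ± 0.07) and the retinoic acid synthase ALDH1A3 (0.50 ± 0.07) rose in the authors' deposited table. DHRS3 (0.47 ± 0.07) and CYP26A1 (1.09 ± 0.44, adjusted p = 0.0359) rose there too. RARB, a retinoic acid receptor gene, fell from an implied 14.3 to 2.78 (adjusted p = 0.00112) in that table, a knockout level near the floor, so its fold is not given as a size. It was the only gene of this list called lower, and CTCF was not called at 0.10 ± 0.06. Of 27 other homeobox genes of the same ANTP class 10 had a row, with 3 higher and 2 lower. BARX2 (2.25 ± 0.11) and DLX3 (2.15 ± 0.19) rose in the authors' deposited table, and MSX1 went from an implied 190 to 1.01. No HOX gene reached the size of these 3 changes.

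**Figure D4:**
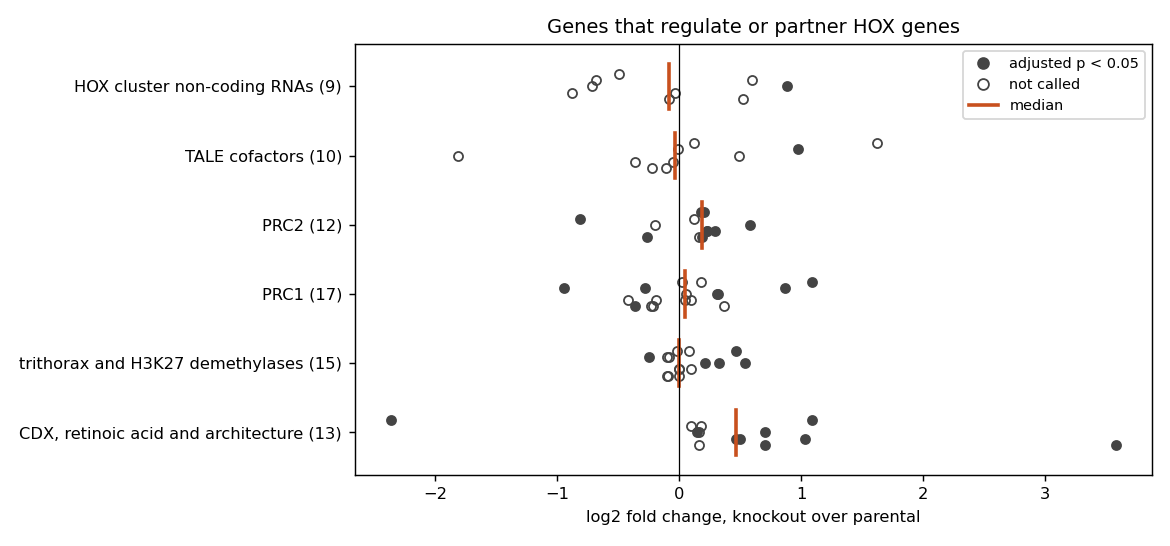
Log2 fold change (knockout over parental) of the genes of 6 lists, 1 dot per gene with filled dots at an adjusted p under 0.05 and an orange line at each list's median, with the number of genes with a row in brackets. Medians run from -0.08 for the non-coding RNAs of the clusters to 0.47 for the retinoic acid list, and within the PRC2 list 7 genes lie higher and 2 lower.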

How the data were processed

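RNA of 3 parental and 4 AXL knockout PC9 libraries was measured by bulk MARS-seq, per the labels' protocols. The authors' statistics come from DESeq2, per the submitters' processing notes. The sources used here do not name the aligner, the build, the annotation, or the use of strand and molecular identifiers. The authors deposited, per the file headers, 1 signal per gene (the mean of its normalized counts), the log2 fold change and the standard error of that change, a Wald score, and p-values, raw and adjusted by Benjamini-Hochberg over 16522 genes. No column per library was analysed, so edgeR was not run. The only count fits were negative binomial refits of single genes on the recovered counts. Both clones entered the authors' fit together.

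Counts per library were recovered as follows. The deposited mean is a sum of whole counts times a step per library, which is 1 over 7 times its size factor. The 7 steps were read from 68 rows with a mean above 0 and under 0.6, all 68 of which they give, against 66 for the next best set, and were refined on 111 rows. Of the steps, 3 go with negative and 4 with positive fold changes, which matches the 3 parental and 4 knockout libraries and sets the direction. All sets of 7 whole counts giving a gene's mean within a relative tolerance of 1e-14 were listed, and those whose refitted negative binomial fold change equals the deposited one within 1e-06 were kept. A tolerance of 1e-10 had been planned. Exactly 1 set was left for 20 HOX genes, 4 for HOXA3 and 2 for HOXB7. On simulated data for 19 HOX genes with a mean under 150, 57 of 57 draws were recovered. The draws used a fixed dispersion and the same steps as the recovery. They did not cover HOXC13, the non-coding RNAs or AXL. For HOXC13, 391 sets gave the mean, and its counts rest on the fold change that left 1 of them. Normalized counts are counts divided by size factors. Implied levels come from the deposited mean and fold change, and intervals are 95% normal ones, which cover counting error and spread as modelled by the authors.

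Symbols matched 16428 of 16527 identifiers, and GENCODE 29 (GRCh38) gave positions for 16517. All HOX genes with a row were accounted for. Of each list and of the genes beside each cluster, up to 4 with the smallest p were to be named, and others named here were chosen after their values were seen. A gene that this rule took is not reported here. The HOX genes and the lists were chosen with earlier results of these data known. Alternatives were an adjusted p under 0.01, a 2-fold minimum, a mean of at least 20, adjustment over genes with a mean of at least 1, a null of up to 0.5 on the log2 scale, a t distribution on 5 degrees of freedom, centred fold changes, and leaving out each library, which was added after seeing the data. The leave-one-out refits kept the dispersion, the size factors and the cutoff of unadjusted p of all 7 libraries. With 2 libraries per clone, the other library of a clone stayed in each refit, so the loss of a clone was not tested. Python 3.11.15, numpy 2.4.6, pandas 2.3.3, scipy 1.17.1, numba 0.67.0 and matplotlib 3.10.9 were used.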

Additional observations from a re-analysis of the deposited data

Results flagged for a closer look

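HOXB8 had 1 knockout library apart from the other 3. Its knockout counts were 48, 37, 44 and 44, and the gap from the lowest normalized count to the next took 0.873 of the group's range, above Dixon's critical value for 4 samples. Of 20 HOX genes tested in this way 1 was set apart, and chance sets apart about 1 group in 20.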

How the results depend on the processing

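The count of 6 called HOX genes stayed at 6 with an adjusted p under 0.01, with adjustment over genes with a mean of at least 1, with centring, and with a mean of at least 20, where HOXA9 entered and HOXC4, at a mean of 18.4, was not tested. It was 2 with a 2-fold minimum (HOXA11 and HOXC4), 3 with a t distribution on 5 degrees of freedom (HOXA11, HOXC4 and HOXC13) and 2 with a null of up to 0.5 on the log2 scale (HOXC4 and HOXC13), where HOXA11 had an adjusted p of 0.0845. With each library left out in turn it ran from 5 to 7. No called gene changed direction in the alternatives run. Of the uncalled genes, 6 did so in leave-one-out refits, with ranges of -0.49 to 0.03 for HOXA6, -0.11 to 0.37 for HOXA10, -0.06 to 0.68 for HOXA13, -0.09 to 0.19 for HOXC6, -0.11 to 0.31 for HOXC8 and -0.22 to 0.10 for HOXC10. No paired analysis was possible because the replicate numbers of the recovered libraries are not known. The standard errors of HOX genes ran from 0.07 to 0.83, so small changes of the low genes were not detectable at this depth.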
